A study of Mus musculus with 29 samples.

Results

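The interferon-inducible GTPase genes examined here were Gbp2, Gbp3, Gbp4, Gbp5, Gbp6, Gbp7, Gbp8, Irgm1, Irgm2 and Igtp, which are 10 of the 21923 mouse protein-coding genes in GENCODE release 21. They were chosen by name, and every deposited peak that overlapped a gene body or the 20 kb on either side of it was assigned to them. Their windows merged into 6 loci, because neighbouring genes of the family share elements, and an element within several windows was counted once.

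In CUT&RUN a nuclease is led to a chromatin protein by an antibody, and the DNA it cuts free is sequenced. IRF8, a transcription factor of myeloid cells, was mapped with an antibody to GFP in female IRF8-EGFP mice, which carry IRF8 tagged with a green fluorescent protein. Sorted microglia gave 4 IRF8 libraries at postnatal day 9 (P9; 4 of the 7 made, by the labels), 3 at postnatal day 14 (P14) and 3 in adults, and sorted peritoneal macrophages gave 3. Microglia of adult female wild-type (WT) and IRF8KO (KO) mice were profiled for PU.1, another transcription factor, and for H3K27ac and H3K4me1, with 2 libraries for each target and genotype, and the KO H3K27ac libraries are 2 of 3 by the labels. The age of the adult mice is 3 months by the growth protocol, which is attached to all libraries and names WT and IRF8KO mice. In both the adult and the peritoneal group, batch 1 holds replicates 1 and 2, and batch 2 holds replicate 3. The source label of the peritoneal libraries names microglia, and their titles were followed. The labels do not say whether libraries of a group came from separate animals, so spread and p-values refer to libraries.

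Interferon-inducible GTPases are proteins of cell-autonomous defence that bind and hydrolyse GTP. The guanylate-binding proteins (Gbp genes) coat pathogen-containing vacuoles and bacteria, and the immunity-related GTPases Irgm1, Irgm2 and Igtp (also called Irgm3) sit on membranes of the host cell and keep other GTPases of the family from acting there. Interferon-gamma induces most of them through GAS elements and through interferon regulatory factors, which bind interferon-stimulated response elements (ISRE) of repeated GAAA. IRF8 can bind an ISRE or, together with PU.1, a composite site that joins GGAA, read by ETS factors, to GAAA, read by IRFs.

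The sequences just before the transcription starts were read first, because an ISRE-like match lay before each member with a RefSeq promoter window. Gbp4, Gbp6 and Gbp8 had no such window, and the bases before their starts were not searched in this way. RefSeq promoter windows on GRCm38.p6, from 250 bases before to 50 after a start, were found for 7 of the 10 members (Gbp2, Gbp3, Gbp5, Gbp7, Irgm1, Irgm2 and Igtp), with 8 windows in all because Gbp3 has 2. The ISRE-like motif GAAANNGAAA was present, on either strand, before all 7 of these genes (7 of the 8 windows), against 3.44% of 32851 promoter windows in the genome. The GAS motif TTCNNNGAA was present before 4 of the 7 (Gbp5, Gbp7, Irgm2 and Igtp), against 8.30% of all windows. The composite motif GGAANNGAAA was present before 3 (Gbp5, Irgm2 and Igtp), against 2.72%, and the ETS core AGGAAGT before none, against 9.35%. An ISRE-like and a composite match can overlap each other, and both can overlap a GAS match. The 200 bases before each start follow, on the strand of the gene and in GRCm38.p6, with ISRE-like, composite and GAS matches in capitals.

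Gbp2 (chr3:142620463-142620662, + strand): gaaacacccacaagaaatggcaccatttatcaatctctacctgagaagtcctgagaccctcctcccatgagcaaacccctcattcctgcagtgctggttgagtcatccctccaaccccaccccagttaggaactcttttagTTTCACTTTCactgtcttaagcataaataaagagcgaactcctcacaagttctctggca
Gbp3 (chr3:142559844-142560043, + strand): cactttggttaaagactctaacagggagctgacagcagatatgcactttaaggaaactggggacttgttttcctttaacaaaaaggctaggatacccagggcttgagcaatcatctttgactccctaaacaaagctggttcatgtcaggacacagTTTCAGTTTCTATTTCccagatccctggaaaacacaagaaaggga
Gbp5 (chr3:142496734-142496933, + strand): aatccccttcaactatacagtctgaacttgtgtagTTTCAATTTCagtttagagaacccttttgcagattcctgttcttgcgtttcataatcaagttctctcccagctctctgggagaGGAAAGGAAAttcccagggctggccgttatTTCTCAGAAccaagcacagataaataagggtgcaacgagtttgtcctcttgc
Gbp7 (chr3:142530136-142530335, + strand): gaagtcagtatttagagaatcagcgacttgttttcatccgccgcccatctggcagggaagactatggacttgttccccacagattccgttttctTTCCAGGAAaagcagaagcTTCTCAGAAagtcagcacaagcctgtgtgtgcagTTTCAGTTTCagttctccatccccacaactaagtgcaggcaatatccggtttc
Irgm1 (chr11:48871421-48871620, - strand): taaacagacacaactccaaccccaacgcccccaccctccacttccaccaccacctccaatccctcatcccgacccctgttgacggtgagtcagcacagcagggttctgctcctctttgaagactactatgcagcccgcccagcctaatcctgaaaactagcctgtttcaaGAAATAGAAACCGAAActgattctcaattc
Irgm2 (chr11:58214777-58214976, + strand): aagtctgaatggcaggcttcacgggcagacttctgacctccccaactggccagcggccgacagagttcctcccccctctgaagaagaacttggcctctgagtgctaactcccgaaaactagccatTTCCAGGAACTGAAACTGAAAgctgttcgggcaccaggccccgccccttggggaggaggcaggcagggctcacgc
Igtp (chr11:58199356-58199555, + strand): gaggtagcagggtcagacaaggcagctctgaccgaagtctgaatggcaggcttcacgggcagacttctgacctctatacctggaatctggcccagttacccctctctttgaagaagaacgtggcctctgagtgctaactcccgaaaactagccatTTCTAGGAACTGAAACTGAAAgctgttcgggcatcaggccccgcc

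In 6 of these genes the ISRE-like match nearest the start began between 24 and 64 bases before it, and in Gbp5, at position -165, it began farther away. Gbp3 and Irgm1 each held 2 ISRE-like matches that overlap by 4 bases, so that 3 GAAA units follow each other on one strand. A further GAS match of Gbp5 lay farther from its start than the printed bases reach. Before Igtp and Irgm2 the GAS, composite and ISRE-like matches overlap in one run. The 2 promoters had the same base at 87 of 90 positions around that run, so short reads from them are not always placed with certainty.

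IRF8 peaks of adult microglia covered these promoter matches in every library. The ISRE-like matches before all 7 starts lay inside an IRF8 peak in 3 of 3 adult libraries. In P14 microglia the same matches were covered in 3 of 3 libraries for Gbp2, Gbp3, Gbp7, Irgm2 and Igtp and in 2 of 3 for Gbp5 and Irgm1. In P9 microglia the match before Gbp7 was covered in 4 of 4 libraries and the others in 0 of 4. In peritoneal macrophages coverage was 3 of 3 for Gbp2, Gbp3, Gbp5 and Gbp7 and 2 of 3 for Irgm1, Irgm2 and Igtp. Of all 1131 RefSeq promoter windows with an ISRE-like match, the share with a match inside a peak in every library of the group was 0.0884% at P9, 3.54% at P14, 5.48% in adult microglia and 1.33% in peritoneal macrophages. At P9 that share is 1 window, the one of Gbp7. A peak is wider than a binding site, so a covered match is not shown to be the bound base.

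The 25 peak lists differed greatly in length. IRF8 libraries held 7.25 to 24.71 M fragments, and their lists held 1168 to 2068 regions at P9, 7931 to 19243 at P14, 17048 to 29667 in adult microglia and 9788 to 23163 in peritoneal macrophages. The PU.1 and histone libraries held 8.57 to 23.88 M fragments, with KO H3K27ac replicate 2 the shallowest. Among 6 microglia marker genes, 5 carried an H3K27ac consensus region within 1 kb of a start in WT microglia and 2 (P2ry12 and Siglech) in KO microglia. P2ry12 also carried an IRF8 consensus region at a start in peritoneal macrophages. Of 5 peritoneal macrophage markers, Gata6 and Icam2 carried an IRF8 consensus region at a start in peritoneal macrophages, and 0 of 5 did in microglia of any age. The 5 neuron and 4 astrocyte markers carried no IRF8 or H3K27ac consensus region at a start in any group, while 2 of 4 oligodendrocyte markers (Mbp and Mog) carried H3K27ac in WT and 0 of 4 in KO, as did 1 of 4 lymphocyte markers (Ms4a1) in WT and 0 of 4 in KO. Mog also carried an IRF8 consensus region at a start at P14, in adult microglia and in peritoneal macrophages, and the neutrophil marker S100a8 in peritoneal macrophages. None of the 3 WT H3K27ac consensus regions within 20 kb of Irf8 was lost, no WT PU.1 consensus region lay there, and a peak list does not show whether IRF8 itself is missing.

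IRF8 was already on 3 elements of the chromosome 3 Gbp cluster at P9 and on nearly every member in adult microglia. A region counts as consensus when 2 or more libraries of the group list a peak in it. The members had 3 IRF8 consensus regions at P9, 12 at P14, 17 in adult microglia and 22 in peritoneal macrophages. When each list was cut to its 1168 strongest regions, the length of the shortest, the counts were 3 at P9, 4 at P14, 4 in adult microglia and 6 in peritoneal macrophages, so most of the increase was seen only with the full lists. Without peritoneal replicate 1 or without replicate 2 the full lists gave 9 in peritoneal macrophages. At P9, 3 of the 10 members (Gbp3, Gbp7 and, through the Gbp7 element, Gbp5) had one within 20 kb, against 6.99% of protein-coding genes. At P14, 9 of the 10 members (all but Gbp6) had one, against 32.0% of genes. In adult microglia the same 9 members had one, against 50.7%, and in peritoneal macrophages all 10 did, against 40.0%. Members of one cluster share elements, so these counts are not independent of each other.

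Within 1 kb of a start, the counts of members with an IRF8 consensus region were 2 at P9 (Gbp3 and Gbp7), 7 at P14, 9 in adult microglia and 10 in peritoneal macrophages. The shares over all protein-coding genes were 1.51% at P9, 11.8% at P14, 26.5% in adult microglia and 17.8% in peritoneal macrophages. Gbp4 and Gbp8 were the members with an IRF8 consensus region at a start in adult but not in P14 microglia. They share that element, because a Gbp8 transcript in GENCODE starts beside Gbp4. A peak was listed there in 1 of 3 P14 and 2 of 3 adult libraries.

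**Figure D1:**
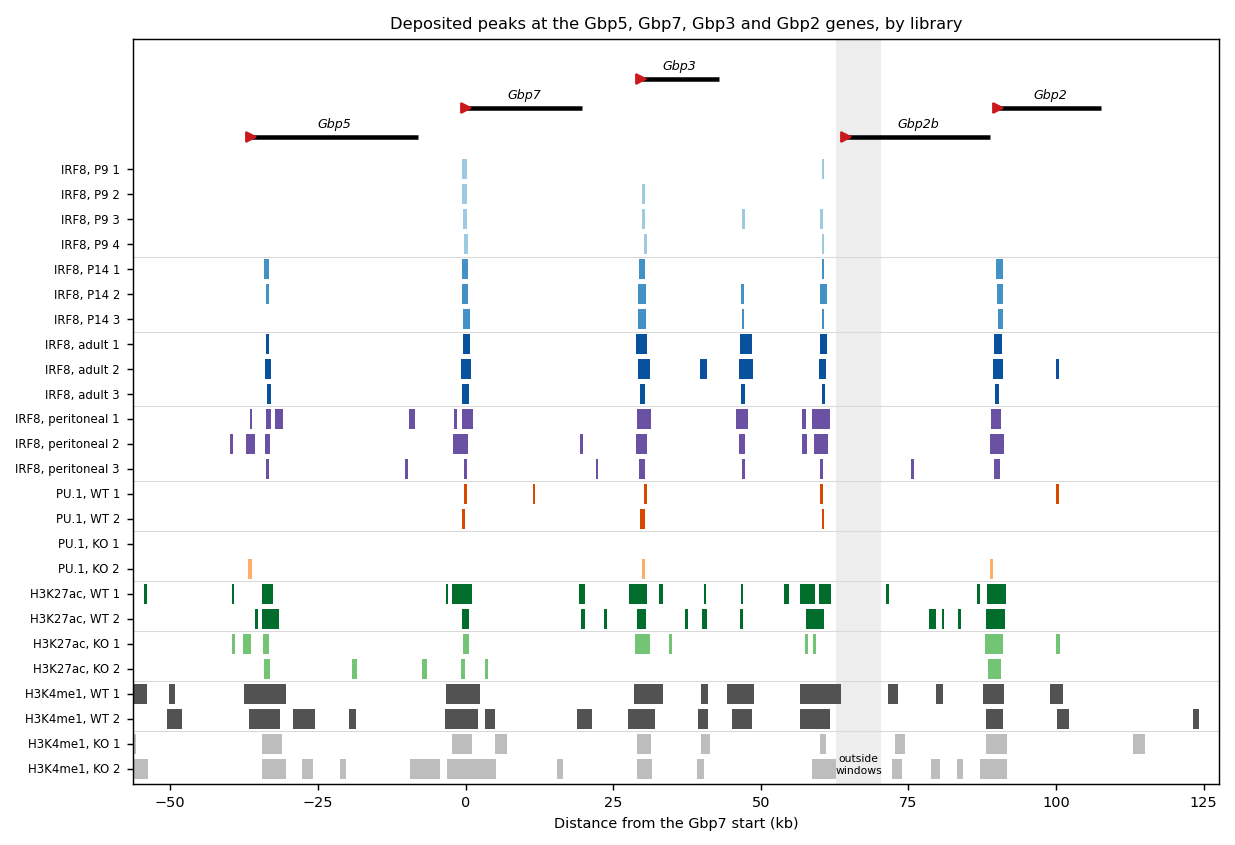
Deposited peaks of the 25 libraries (rows, coloured by group) along the Gbp5, Gbp7, Gbp3 and Gbp2 loci, with genes as black bars and red arrowheads at the GENCODE gene start. The x axis is the distance from the Gbp7 start in kb, and the grey band lies outside the windows. All 13 IRF8 libraries have a peak at the Gbp7 start, and neither KO PU.1 library has one there.

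The merged IRF8 peaks of all 13 libraries gave 42 regions at the members, of which 20 lay in the windows of 2 members. Of these 42 regions, 16 were listed in a single library, 24 in at least 1 microglia library, and 18 in both cell types. Only 6 were listed in any P9 library, and 3 of those 6 came from P9 replicate 3 alone. A region at the Gbp7 start (chr3:142528279-142531630, overlapping an exon of Gbp7) was the only one listed in all 13 libraries. Gbp7 encodes a guanylate-binding protein linked to the NADPH oxidase and autophagy of macrophages. Its fold enrichment over the control library, as the authors' caller gave it, was 8.45, 7.25, 7.98 and 7.88 at P9, 5.82, 9.23 and 4.35 at P14, 18.2, 17.8 and 7.62 in adult microglia, and 15.7, 12.2 and 6.30 in peritoneal macrophages. The P9 libraries were alike and lay within the range of the later groups. Adult replicate 3 and peritoneal replicate 3, the libraries of batch 2, were the lowest of their groups.

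The Gbp3 start (chr3:142559176-142561820) carried one of the strongest IRF8 regions in several libraries. A region's percentile is its rank by −log10 p as a percent of the length of the same list, with tied regions given their mean rank. At the Gbp3 start it was 76.9, 82.2 and 82.5 in 3 of the 4 P9 libraries, with no peak in P9 replicate 1. It was 98.9, 99.9 and 99.3 at P14, 99.4, 99.8 and 93.7 in adult microglia, and 99.8, 99.3 and 97.8 in peritoneal macrophages. Every library after P9 therefore placed this region above the P9 values. Percentiles come from lists of different length and do not measure a change in binding. Fold enrichment there was 6.09 to 6.54 in those P9 libraries, 15.5 to 37.9 at P14, 28.4, 29.3 and 9.18 in adult microglia and 24.5, 15.6 and 9.06 in peritoneal macrophages. The batch 2 libraries, replicate 3 of the adult and of the peritoneal group, were the lowest after P9 and nearest to the P9 values.

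An intergenic region 4.3 kb upstream of the Gbp2b start (chr3:142589001-142592100), inside the window of Gbp3, was also present at P9. Gbp2b is the neighbouring guanylate-binding protein gene formerly called Gbp1, and is not one of the 10 members. The region was listed in 3 of 4 P9 libraries and in 3 of 3 libraries of each later group. Its percentiles were 66.5, 28.4 and 20.2 at P9, 93.2, 94.9 and 92.3 at P14, 98.3, 98.1 and 26.1 in adult microglia and 98.8, 97.7 and 91.5 in peritoneal macrophages. Adult replicate 3 was low, within the P9 range, while the other adult libraries were near the top of their lists.

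The members with IRF8 at the start from P14 on were Gbp2, Gbp5, Irgm1, Irgm2 and Igtp. At the Gbp2 start (chr3:142619161-142621587) no P9 library had a peak, all later ones did, and the percentiles were 89.9, 94.4 and 30.6 at P14, 69.1, 91.6 and 64.4 in adult microglia and 97.4, 96.4 and 83.6 in peritoneal macrophages. At the Gbp5 start (chr3:142496246-142497474) a peak was listed in 2 of 3 P14, 3 of 3 adult and 3 of 3 peritoneal libraries. Gbp5, which promotes assembly of the NLRP3 inflammasome, has another annotated start within chr3:142493208-142494665, and there peaks were listed in 2 of 3 peritoneal libraries and in no microglia library. Gbp2 was the only member with 1 IRF8 consensus region in each of the 3 later groups.

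The regulatory Irgm genes lie on chromosome 11. The Irgm1 start (chr11:48870206-48873092) was without a peak in the 4 P9 libraries and had one in all P14 and adult libraries and in 2 of 3 peritoneal libraries, with percentiles of 77.9, 86.1 and 96.6 in adult microglia. The Irgm2 start (chr11:58214053-58215683) had the same presence, with percentiles of 70.4, 84.7 and 95.2 in adult microglia. The start of Igtp, where one Irgm2 transcript also begins (chr11:58198731-58200357), had a peak in 1 of 4 P9 libraries and in every later library. The percentiles there were 98.9, 98.0 and 79.4 at P14 and 78.1, 85.7 and 92.5 in adult microglia. At all 3 of these promoters adult replicate 3 had the highest adult percentile, in contrast to its low percentile upstream of Gbp2b. By fold, adult replicate 1 was the highest at the Igtp start (5.85, 4.79 and 5.80 in replicates 1, 2 and 3).

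A pair of distal elements on chromosome 11 was listed in all 3 adult libraries. One lay 16.5 kb downstream of the Irgm1 start and 6.8 kb past the end of the gene (chr11:48853288-48857146) and was listed in no P9 library, 2 of 3 P14 libraries, every adult library and 2 of 3 peritoneal libraries. The other lay 15.7 kb upstream of Igtp (chr11:58182930-58184845), in 0 of 4, 1 of 3, 3 of 3 and 3 of 3 libraries, and its percentiles were 52.6, 93.5 and 92.8 in adult microglia and 99.4, 97.3 and 1.9 in peritoneal macrophages. One more region, 13.1 kb downstream of the Irgm1 start (chr11:48858174-48859091), was listed in 1 P14 and 2 adult libraries and in no peritoneal library.

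**Figure D2:**
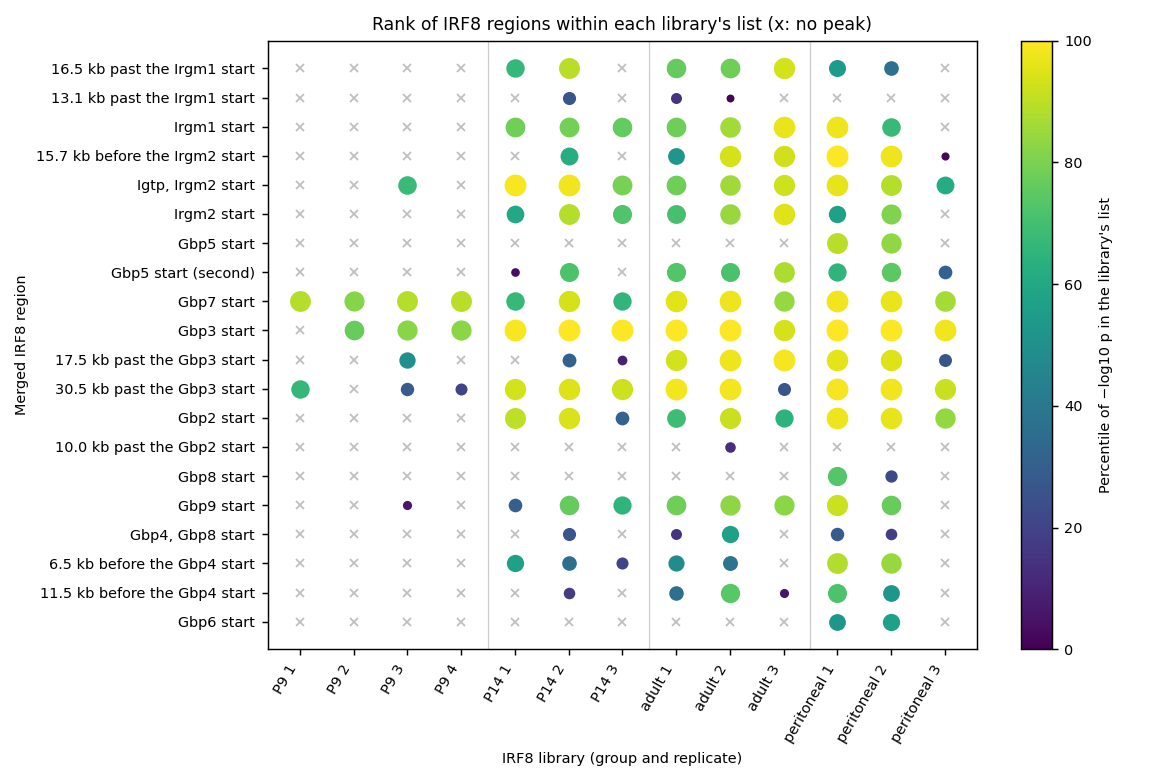
Percentile of −log10 p within each library's list (colour and size of the point, from 0 to 100; x for no peak) for the named IRF8 regions (rows, in genome order) in the 13 IRF8 libraries (columns). At P9 the Gbp7 start is the only row filled in all 4 libraries (P9 percentiles 81.8 to 89.8), and the Gbp6 start is filled only in peritoneal replicates 1 and 2. The row 30.5 kb past the Gbp3 start is the element upstream of Gbp2b, and the row 15.7 kb before Irgm2 the one upstream of Igtp, which starts beside it.

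On chromosome 5, IRF8 at the starts of Gbp4, Gbp8 and Gbp6 was listed in fewer microglia libraries than at the other members. The element with the highest adult percentiles in the window of Gbp4 and Gbp8 was the start of the neighbouring Gbp9 (chr5:105108981-105111093), listed in 1 P9 library, every P14 and adult library and 2 of 3 peritoneal libraries, with percentiles of 77.8, 83.2 and 82.5 in adult microglia. The Gbp4 start (chr5:105138398-105140569) had a peak in 1 of 3 P14, 2 of 3 adult and 2 of 3 peritoneal libraries, with percentiles of 14.7 and 56.9 in adult microglia. Elements 6.5 kb and 11.5 kb upstream of Gbp4 (chr5:105144990-105147088 and chr5:105150391-105151743) were listed in 2 and 3 of 3 adult libraries. The GENCODE gene start of Gbp8 lies within the region given for the Gbp4 start, and at an internal Gbp8 start (chr5:105052025-105053212) only peritoneal libraries, 2 of 3, had a peak. At Gbp6 no microglia library of any age had an IRF8 peak within 20 kb, while peritoneal replicates 1 and 2 had one at the start (chr5:105292285-105293897; fold 5.14 and 4.75) and one 12.9 kb upstream.

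Repeated sequence limits what can be read from chromosome 5. The share of 32-base stretches that occur once in the GRCm38.p6 chromosomes, close to the 35-base read length in the labels, was 30.9% over the Gbp6 gene body, 61.3% over Gbp8 and 85.0% over Gbp4. Over the gene bodies of Gbp2, Gbp3 and Gbp7 on chromosome 3 it was 96.3%, 97.2% and 92.5%, and over Gbp5 75.6%. Around the starts it was 40.3% to 65.9% for Gbp8, 69.1% to 69.3% for Gbp6, 61.5% for Gbp4, and 77.0% to 80.5% for Igtp and Irgm2. The sources used here do not say how reads with several matches were treated, so peaks at these paralogs are uncertain, and the part of this in the low IRF8 signal was not tested.

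Between adult microglia and peritoneal macrophages, 3 against 3 libraries cannot give an exact p below 0.1, so no test was made. Of the 42 regions, 6 were listed in at least 2 peritoneal libraries and in no microglia library of any age, against 5.14% of the 67562 merged IRF8 regions in the genome, including both Gbp6 regions, the alternative Gbp5 start and the internal Gbp8 start. In the other direction, 2 of the 42 were listed in at least 2 adult libraries and in no peritoneal library, against 9.99% genome-wide, both of them distal elements on chromosome 11, past the ends of Irgm1 and Irgm2. Within batch 1 the Gbp6 start was listed in 0 of 2 adult and 2 of 2 peritoneal libraries, and within batch 2 in neither of the single libraries. Peritoneal replicate 3 lacked 13 regions that both other peritoneal libraries had.

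Presence of IRF8 regions was tested for a trend over the ordered ages P9, P14 and adult with an exact permutation test (Jonckheere-Terpstra statistic, two-sided, 10 libraries), and p-values were adjusted by the Benjamini-Hochberg method over all tested regions of the genome. Of 13 tested regions at the members, 7 were called higher with age and 0 lower, against 55.5% of 9338 tested regions genome-wide, so the members' share was close to the background. All 7 were listed in no P9 library and entered the test, which took regions listed in 4 to 9 of the 10 libraries, only through the later ages, so their direction followed from how they entered and the count supports nothing. With the full lists no region in the genome was lower with age at an unadjusted p under 0.05, while with lists of equal length 33 of the 110 regions at such a p were lower. The called regions were the starts of Gbp2, Irgm1 and Irgm2 (each in 0 of 4 P9, 3 of 3 P14 and 3 of 3 adult libraries, exact p = 0.00476, the smallest possible, adjusted p = 0.0298), the Gbp5 start and the element downstream of Irgm1 (exact p = 0.0238, adjusted p = 0.0429), and the elements upstream of Igtp and 11.5 kb upstream of Gbp4 (exact p = 0.0190, adjusted p = 0.0429). The Gbp3 start and the element upstream of Gbp2b were tested and not called (exact p = 0.7, adjusted p = 0.705), and the Gbp7 start, listed in all 10, was not tested. No member region was called when the lists were cut to equal length, without the filter on the number of libraries, with the replicate number as a block, or when any single P9 library was left out (smallest exact p = 0.0238), while 2 were called at a minimum −log10 p of 10, 3 without adult replicate 1 and 3 without adult replicate 2. Age cannot be told apart from list length and from the control library, which differed between ages.

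PU.1, an ETS factor that opens chromatin in myeloid cells, was found on 6 WT consensus regions at the members, and 3 of the 6 had no peak in either KO library. All 6 overlapped an adult IRF8 consensus region, as did 87.4% of WT PU.1 regions genome-wide. A WT consensus region is called lost when neither KO library has an overlapping peak, and genome-wide 25.1% of 5359 PU.1 regions were lost. Without WT replicate 2, when any peak of WT replicate 1 stands as a WT region, 9 of 12 regions at the members were lost, against 58.6% genome-wide. With 2 against 2 libraries an exact test cannot go below 0.333, so losses are counts without a test. KO microglia had 2 PU.1 consensus regions at the members and 0 of them were gained (no peak in either WT library), against 16.5% of 4585 genome-wide. Gains were 2 of 5 without KO replicate 1, against 58.2% genome-wide, and 2 of 4 without KO replicate 2, against 47.3%. At starts, PU.1 consensus regions were present for 3 members in WT (Gbp3, Gbp7 and Irgm1) and for 0 in KO, while over all genes the shares were 6.44% and 6.49%.

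The 3 lost PU.1 regions were those 1.0 kb upstream of Irgm1, at the Gbp7 start, and 4.2 kb upstream of Gbp2b. Upstream of Irgm1 (chr11:48872450-48873011) the WT fold enrichments were 8.33 and 7.26. At the Gbp7 start (chr3:142529736-142530511) they were 7.06 and 5.78, and upstream of Gbp2b (chr3:142590436-142590926) 7.88 and 6.21. IRF8 was present at the last 2 from P9 on. At the Gbp3 start the WT folds were 6.93 and 5.75, with no peak in KO replicate 1 and 3.73 in KO replicate 2, so that region counts as kept on 1 library.

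A PU.1 region inside the IRF8 element past the end of Irgm1 (chr11:48853558-48854178) was present in all 4 PU.1 libraries. It had WT folds of 15.1 and 9.31 and KO folds of 23.4 and 14.5, at percentiles of 96.0 and 92.6 in WT and 99.4 and 98.4 in KO. WT and KO libraries of the same replicate number were called against the same control at the same threshold, and in each of these 2 pairs the KO library had the higher fold and the higher percentile. Replicates 1 and 2 differ in control and threshold, and KO replicate 2 was below WT replicate 1 in fold. Its folds were the highest of the 6 regions in each library. The Gbp9 start was kept with folds of 5.01 and 4.83 in WT and 3.87 and 5.74 in KO. None of the 4 motifs was found in the 150 bases centred between the summits of the WT libraries at any of these 6 regions. At the Gbp7 start those summits lay 231 bases apart, so the window held neither of them. The whole PU.1 region held 1 ISRE-like and 2 GAS matches at the Gbp7 start, 3 ISRE-like and 1 composite match at the Gbp3 start, and none of the 4 motifs at the other 4 regions. The windows of the strongest kept and of a lost region are given for comparison, on the + strand of GRCm38.p6, without capitals because no motif matched there.

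Kept past Irgm1 (chr11:48853755-48853904): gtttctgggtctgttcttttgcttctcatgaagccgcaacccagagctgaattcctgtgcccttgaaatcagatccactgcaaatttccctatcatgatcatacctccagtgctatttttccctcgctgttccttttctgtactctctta
Lost upstream of Gbp2b (chr3:142590696-142590845): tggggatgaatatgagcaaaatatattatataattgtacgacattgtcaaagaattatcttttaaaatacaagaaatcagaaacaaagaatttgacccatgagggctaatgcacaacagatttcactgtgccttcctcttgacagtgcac

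H3K27ac, a mark of active promoters and enhancers, was lost in KO microglia at 1 of the 8 WT consensus regions within 1 kb of a member's start, against 22.7% of the 9349 regions genome-wide that lie within 1 kb of a protein-coding start. Of the 18 member regions away from any such start 10 were lost, against 37.9% of 27348, and the region at the Gbp9 start was kept. In WT, 9 members had an H3K27ac consensus region within 1 kb of a start (all but Igtp), against 38.9% of genes. In KO, 6 did (Gbp2, Gbp5, Gbp6, Gbp7, Gbp8 and Irgm1), against 11.7%. Gbp8 counted through different starts, in WT through the one beside Gbp4, which was lost, and in KO through an internal start (chr5:105052114-105053993; KO folds 8.23 and 5.27, WT replicate 1 3.70, no peak in WT replicate 2). The whole genome had 36697 consensus regions in WT and 10555 in KO, and the fall from 5 to 2 microglia markers with H3K27ac went the same way, whose part in the member counts was not tested. Of 27 WT consensus regions at the members 11 were lost (40.7%), against 34.0% of all WT regions, a share close to the background. Of 10 KO consensus regions 1 was gained, 13.8 kb from the Mrpl22 start in the Igtp and Irgm2 windows (chr11:58185306-58185644, KO folds 4.76 and 3.32), against 10.9%. Without KO replicate 1 the gained regions were 9 of 19, against 55.5% genome-wide, without KO replicate 2 they were 14 of 34, against 55.9%, and without WT replicate 1 they were 2 of 10, against 17.6%.

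Among the kept promoters, the Gbp2 promoter had folds of 10.5 and 13.4 in WT and 8.95 and 8.62 in KO, and the Gbp5 promoter 11.7 and 14.4 in WT and 8.59 and 6.48 in KO. At these promoters both KO libraries were below both WT libraries in fold, while at Gbp2 the percentiles overlapped (96.1 and 98.0 in WT, 97.1 and 94.1 in KO). The Irgm1 promoter had 8.21 and 10.8 in WT and 9.25 and 8.86 in KO, the Gbp7 promoter 6.17 and 6.54 against 6.08 and 6.71, and the Gbp6 promoter 5.86 and 9.49 against 11.1 and 9.58. At Gbp6 both KO libraries were above both WT libraries in fold and in percentile (99.2 and 95.6 in KO, 73.8 and 91.8 in WT). The Gbp6 promoter thus carried H3K27ac in both genotypes although no microglia library had an IRF8 peak there. Repeated sequence around this start, described above, leaves peaks there uncertain. Fold enrichment depends on depth and control and is the authors' value for each library.

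The Gbp3 and Irgm2 promoters were kept on 1 KO library only. At Gbp3 the WT folds were 9.79 and 9.16, and KO replicate 1 had 3.44 with no peak in replicate 2. At Irgm2 they were 7.34 and 6.62 in WT and 7.12 in KO replicate 1. The Gbp4 promoter (chr5:105139247-105141648) was lost, with WT folds of 4.63 and 7.41. KO replicate 2, the shallow library, had 31524 regions against 88400 in KO replicate 1. At the members 11 of 27 regions were lost without KO replicate 2, against 37.3% genome-wide, and 19 of 27 without KO replicate 1, against 72.9%. Without WT replicate 1 they were 30 of 45, against 59.5%, and without WT replicate 2 they were 29 of 50, against 54.5%.

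**Figure D3:**
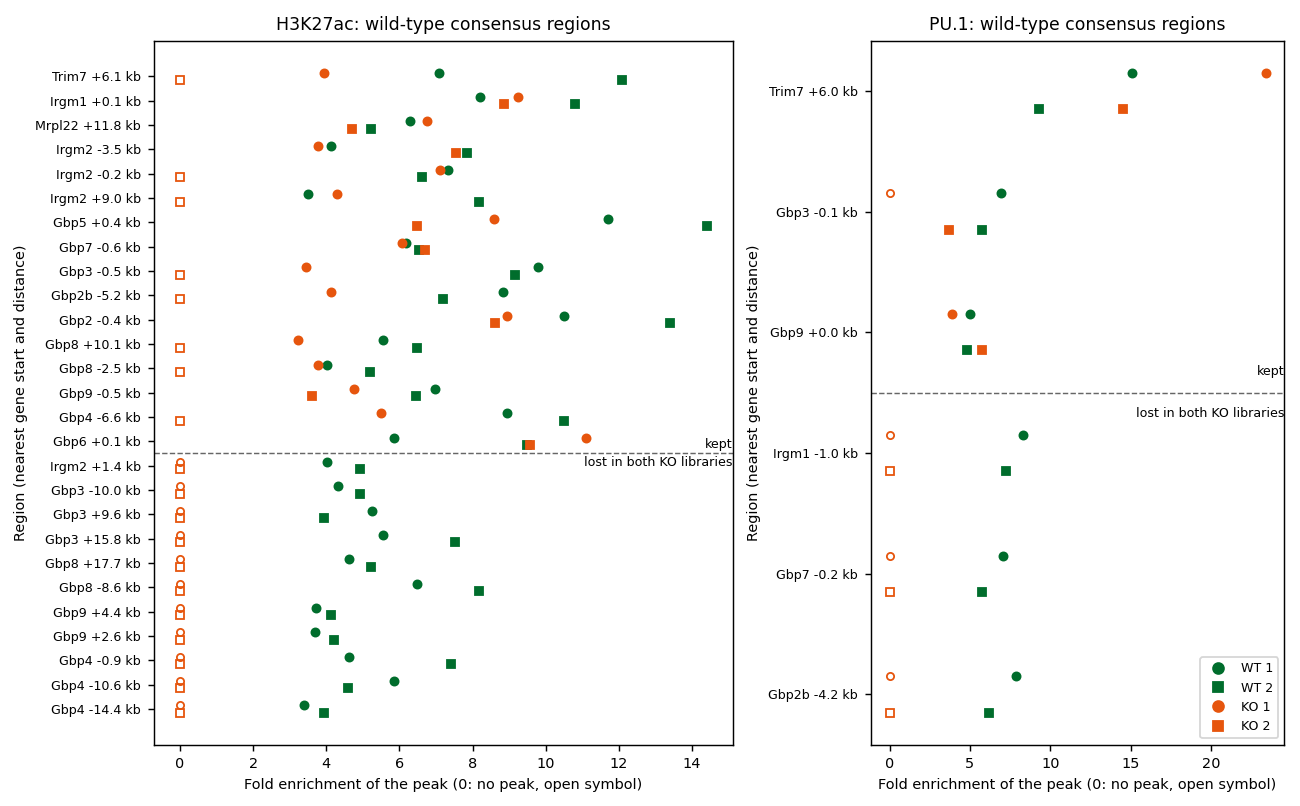
Fold enrichment over the control, as deposited, at the 27 H3K27ac (left) and 6 PU.1 (right) WT consensus regions at the members, for 2 WT (green) and 2 KO (orange) libraries, with open symbols at 0 for no peak. Rows are named by the nearest gene start and the distance to it, so Trim7 marks the element past the end of Irgm1. The 11 H3K27ac and 3 PU.1 rows under the dashed line have no KO peak.

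The other 10 lost H3K27ac regions lay between 1.4 kb and 17.7 kb from the nearest start and were, apart from 1 in an intron of Irgm2, in the Gbp clusters. Around Gbp3 they were the last exon of Gbp7 10.0 kb upstream, an exon of Gbp3 9.6 kb downstream, and an intergenic region 15.8 kb downstream of the start. On chromosome 5 they were 17.7 kb downstream and 8.6 kb upstream of Gbp8 starts, 4.4 kb and 2.6 kb downstream of Gbp9 starts, and 10.6 kb and 14.4 kb upstream of Gbp4. The region 8.6 kb upstream of Gbp8 had the highest WT folds of the 11, at 6.48 and 8.18. The members with no H3K27ac region lost within 20 kb were Gbp2, Gbp5, Gbp6 and Irgm1.

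The lost H3K27ac regions were also described by whether adult IRF8 had been present. Of 15 WT H3K27ac regions at the members that overlapped an adult IRF8 consensus region 3 were lost, and of the 12 that did not, 8 were lost. Genome-wide the split went the same way, with 21.0% of 12943 regions lost with adult IRF8 and 41.2% of 23754 without. For H3K4me1, which marks enhancers, 1 of 15 with and 4 of 11 without IRF8 were lost, against 2.86% and 16.2% genome-wide. Signal strength was neither compared nor matched between these classes, and the difference in loss was not tested.

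A distal element downstream of Gbp3 carried IRF8 high in the adult lists and had neither histone mark in KO. The IRF8 region (chr3:142576090-142578947) lay 4.3 kb past the end of Gbp3, in no annotated gene. It was listed in 1 of 4 P9 libraries (percentile 49.3), 2 of 3 P14 libraries (31.6 and 8.6), 3 of 3 adult libraries (93.1, 97.5 and 98.5) and 3 of 3 peritoneal libraries (95.9, 94.6 and 25.8). Its fold enrichment was 15.6, 18.3 and 14.7 in adult microglia and at most 5.35 in the younger libraries that listed it. The region was named for its adult percentiles, so high adult values follow in part from that choice. The trend of its presence was not called (exact p = 0.0762, adjusted p = 0.108). H3K27ac there (chr3:142576760-142577397) had WT folds of 5.55 and 7.52 and no KO peak. H3K4me1 (chr3:142574561-142579156) had WT folds of 4.64 and 3.70, at percentiles of 96.4 and 98.2, and no KO peak. No PU.1 library of either genotype listed a peak in it. Of the 3383 WT H3K4me1 regions in the genome that reached a percentile of 95 in both libraries, 65 (1.92%) were lost, a threshold chosen after these values were seen. The 200 bases at the middle of the stretch shared by the 9 IRF8 peaks here are given below on the + strand of GRCm38.p6, because the element had IRF8 and both marks in WT and neither mark in KO. They held no ISRE-like, composite or GAS match and no ETS core. The whole region held 3 ISRE-like matches, 2 GAS matches and 1 ETS core. The IRF8 element 11.5 kb upstream of Gbp4, with lower adult percentiles of 36.1, 74.2 and 5.8, likewise had no KO peak of either mark within it.

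Downstream of Gbp3 (chr3:142577186-142577385): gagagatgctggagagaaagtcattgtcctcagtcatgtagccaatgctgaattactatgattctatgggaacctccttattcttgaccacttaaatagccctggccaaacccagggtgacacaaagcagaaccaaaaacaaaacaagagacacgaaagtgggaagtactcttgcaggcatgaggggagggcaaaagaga

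H3K4me1 was lost or gained at few member regions. Of 26 WT consensus regions 5 were lost (19.2%), against 13.0% of 49737 genome-wide. Without WT replicate 1 they were 16 of 41, against 44.1%. Besides the element downstream of Gbp3, these were 12.9 kb upstream of Gbp5, 10.3 kb downstream of the Gbp2 start, at another internal Gbp8 start (chr5:105019889-105022025), and 12.7 kb upstream of Gbp6. At the internal Gbp8 start that carried H3K27ac in KO, H3K4me1 was kept. Their WT percentiles ran from 12.5 to 83.4, below those of the Gbp3 element. Of 26 KO consensus regions 3 were gained (11.5%), against 23.8% of 62025. Without KO replicate 1 they were 17 of 45, against 56.0% genome-wide, without KO replicate 2 they were 7 of 32, against 41.7%, and without WT replicate 1 they were 6 of 26, against 35.9%. The gained regions lay 5.9 kb upstream of Irgm1, 6.4 kb upstream of Igtp and at the 3′ end of Gbp6. All 10 members had H3K4me1 within 1 kb of a start in both genotypes, against 57.2% of genes in WT and 64.6% in KO. H3K4me1 consensus regions also lay at the starts of 4 of 4 lymphocyte markers in KO, against 1 of 4 in WT. For neutrophil markers it was 2 of 3 in KO (Ly6g and S100a8), against 0 of 3 in WT. In WT and KO, the counts were 4 and 5 of 6 microglia markers and 2 and 3 of 4 astrocyte markers. They were 2 and 2 of 5 neuron markers, 2 and 2 of 5 peritoneal macrophage markers, and 2 and 1 of 4 oligodendrocyte markers. The part of this in the member counts was not tested.

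**Figure D4:**
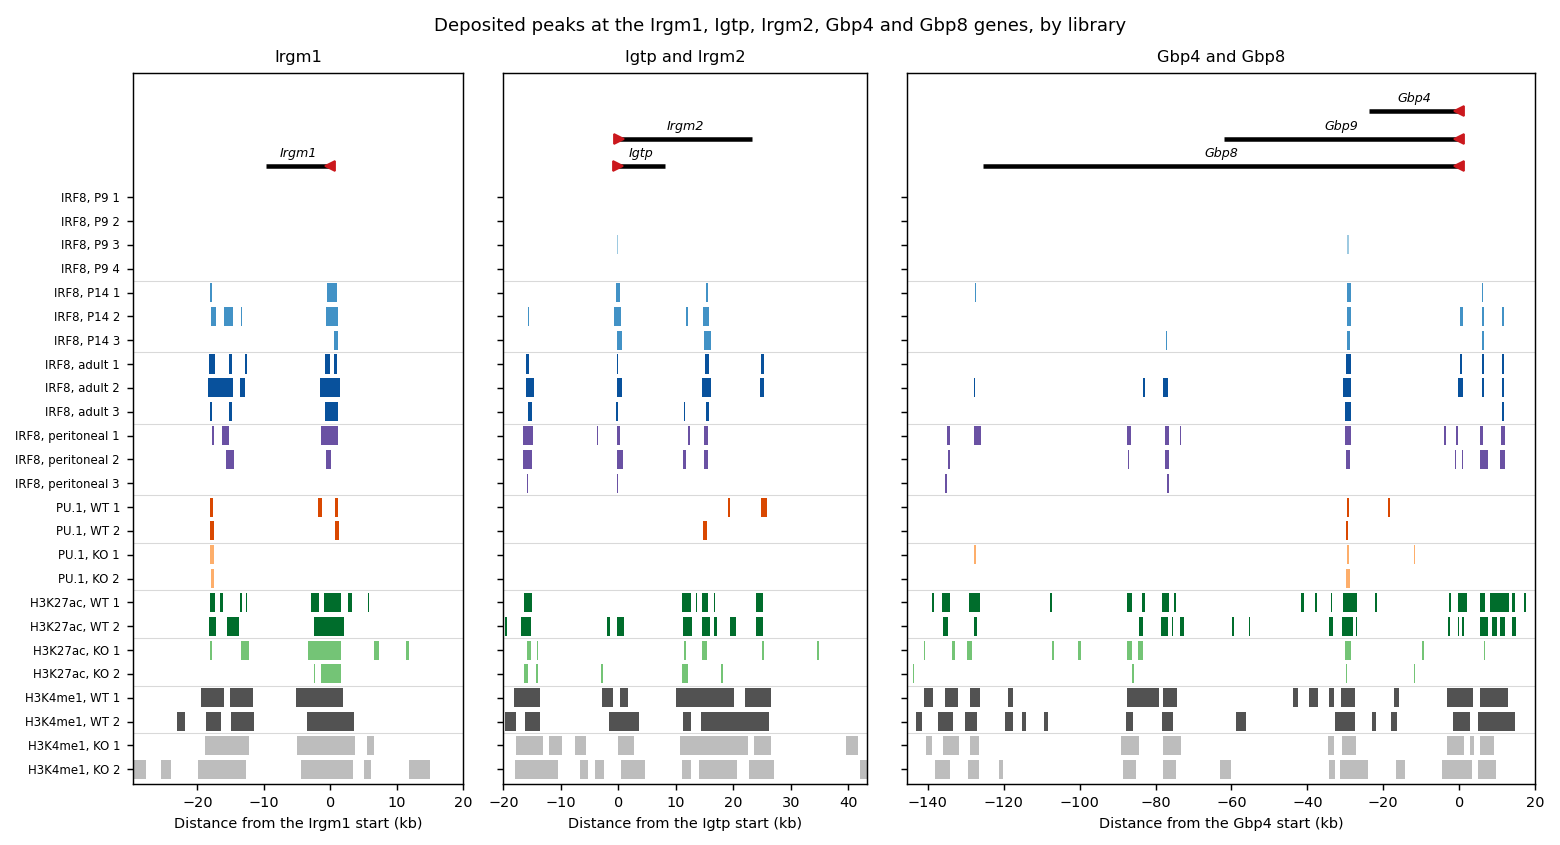
Deposited peaks of the 25 libraries (rows, coloured by group) at Irgm1 (left), Igtp and Irgm2 (middle), and Gbp4, Gbp8 and the neighbouring Gbp9 (right). The x axes are distances in kb from the Irgm1, Igtp and Gbp4 starts, with genes as black bars and arrowheads at their starts. PU.1 past the end of Irgm1 is present in both genotypes, and H3K27ac at the Gbp4 start only in WT.

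ISRE-like and GAS matches were found in a larger share of the adult IRF8 regions at the members than of all such regions, ETS core matches in a smaller share, and for composite matches the order depended on the width examined. Within 100 bp of the centre, 3 of 17 adult IRF8 consensus regions at the members (17.6%) held the ISRE-like motif, against 4.20% of 16934 regions in the genome with sequence. At that width 3 of 17 (17.6%) held the GAS motif against 6.36%, 2 of 17 (11.8%) the composite motif against 6.28%, and 0 of 17 the ETS core against 2368 of the 16934. Over whole regions it was 11 of 17 (64.7%) against 20.3%, and the GAS motif 11 of 17 (64.7%) against 33.2%. The composite motif was found in 4 of 17 whole regions (23.5%) against 24.1%, and the ETS core in 5 of 17 (29.4%) against 48.4%. Wider regions hold more matches, and these shares carry no test. The whole IRF8 region at the Gbp4 start held 1 ISRE-like match. The one at the Gbp6 start, listed only in peritoneal libraries, held 0.

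Genes that act upstream of or beside the GTPases were examined by the same windows, and 50.7% of all genes is the adult background given above. A lost PU.1 region lay within 20 kb of 6.40% of all protein-coding genes and a lost H3K27ac region within 20 kb of 35.2%. Gene lengths and numbers of regions differ between lists and were not matched. Of 12 other interferon-inducible GTPase genes, 3 had an IRF8 consensus region at P9, 8 at P14, 9 in adult microglia and 11 in peritoneal macrophages. In this list 2 genes had a lost PU.1 region (Gbp2b and Gvin1) and 7 a lost H3K27ac region. Gvin1, a very large interferon-inducible GTPase, had 6 lost H3K27ac and 1 lost PU.1 region, Gbp9 had 6 lost H3K27ac regions, and Gbp2b had 2. Gbp2b and Gbp9 share elements with the members.

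Of 12 interferon receptor and signalling genes, 5 had an IRF8 consensus region at P9 and 12 in adult microglia. Lost PU.1 regions were found near 4 of them and lost H3K27ac regions near 7. Ifngr1, a chain of the interferon-gamma receptor, had 1 lost PU.1 and 3 lost H3K27ac regions. Ifnar1 had 3 lost H3K27ac regions, Jak1, a kinase of both receptor types, had 1 lost PU.1 and 2 lost H3K27ac regions, and Ifnar2 had 2 lost and 2 gained H3K27ac regions and 1 gained PU.1 region. All 7 interferon-responsive transcription factor genes had adult IRF8, with 0 lost PU.1 regions and lost H3K27ac near 3, a share close to the background.

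A list of 10 genes of vacuole and bacterial defence, which also held Irf8, was the last. All 10 had adult IRF8, 4 had a lost PU.1 region and 8 a lost H3K27ac region. Atg7, which is needed for autophagosome formation, had 2 lost PU.1 and 4 lost H3K27ac regions. Nlrp3, the inflammasome sensor, had 4 lost H3K27ac regions, and Gsdmd, which forms the pores of pyroptosis, had 1 lost PU.1 and 2 lost H3K27ac regions. For the 10 members themselves the counts were 4 with a lost PU.1 region, against 6.40% of genes, and 6 with a lost H3K27ac region, against 35.2%, including regions shared between neighbours.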

How the data were processed

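CUT&RUN peak lists of 25 libraries were used (13 IRF8, 4 PU.1, 4 H3K27ac and 4 H3K4me1). The labels also name 4 IgG control samples, which entered only through the authors' peak calls. Per the submitters' processing notes the tools were bcl2fastq, Trim Galore, Bowtie2, deepTools and MACS2 with build mm10, and the sources used here do not give their roles or the read filters. Per the file headers, peaks were called in each library against a control library on read pairs with all duplicates kept, by MACS 2.2.7.1 for IRF8 and PU.1 and 2.2.6 for histone marks. The q threshold was 0.01, except 0.05 for PU.1 replicate 2 of both genotypes, which also had another control. H3K4me1 was called broad at p 0.01 with a minimum length of 1000 bp. The deposited values are the pileup signal (coverage, scaled to the smaller of library and control by the authors), −log10 p-values and q-values, and the fold enrichment ratio over the control. Pileup and q-values were not used in any result.

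From these, each chromosome, start and end was counted once per list, peaks were merged within a group or over the IRF8 lists, and overlap of 1 bp counted as shared. Genes and starts came from GENCODE mouse release 21 on GRCm38, and promoter windows from RefSeq on GRCm38.p6. Percentiles rank −log10 p within a list. The age trend was tested on regions listed in 4 to 9 of 10 microglia IRF8 libraries with exact permutation of the Jonckheere-Terpstra statistic and Benjamini-Hochberg adjustment at 0.05, in Python 3.11.15 with numpy 2.4.6 and pandas 2.3.3, and the procedure was tested on simulated data. Regions were named when within 1 kb of a member's start, among the 3 highest in mean adult percentile at a locus, or lost or gained in KO. Pathway genes were named by the 10 largest numbers of lost or gained PU.1 and H3K27ac regions. The IRF8 values upstream of Gbp2b and upstream of Gbp6, the threshold on H3K4me1 percentile and the sequences shown were picked after values were seen. The members and lists were chosen with earlier results of these data known. Alternatives changed the −log10 p minimum, list length, consensus rule, overlap, windows and libraries. Fragments per library give the precision in counting only, and no interval was computed because the lists hold no counts per region.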

Additional observations from a re-analysis of the deposited data

Results flagged for a closer look

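At the Gbp7 start, the percentile of the IRF8 region in P9 replicate 2 was 81.8, while P9 replicates 1, 3 and 4 had 88.7, 88.7 and 89.8. Its distance from the next value was 0.863 of the whole range, above the 95% limit of Dixon's test for 4 values. The fold enrichment of that library, 7.25, was also the lowest of the P9 libraries but within the limit. Such a rule marks about 1 in 20 groups by chance, and 4 measures were examined.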

How the results depend on the processing

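The age trend depended on the processing. Genome-wide, 5185 regions were called; the count was 505 at a minimum −log10 p of 10, and 0 with lists of equal length, 0 without the filter on the number of libraries and 0 with the replicate block. At the members the 7 calls became 2, 0, 0 and 0 under the same settings. Leaving out 1 library gave 0 to 5069 calls genome-wide and 0 to 7 at the members, with 0 for each P9 library, 1532 and 3 without adult replicate 1, and 1479 and 3 without adult replicate 2. With any P9 library left out the smallest exact p was 0.0238. With any P14 or adult library left out, which also removes 1 library, it was 0.00794. With the replicate block 5 member regions had an unadjusted p under 0.05. Correlations of same-numbered libraries were −0.02 to 0.04 over 9 pairs, against −0.11 to 0.08 over 24 other pairs. Being this low, they were the reason that the numbers were not taken as pairs. Yet 6 of 10 libraries correlated best with their own number, although P9 replicate 4 has no same-numbered library at another age. Whether the numbers mark pairs is therefore not settled. No paired test was made for WT against KO. A region called lost is listed in both WT libraries and in neither KO library, so it is lost within both same-numbered pairs, and the same holds for gains with the genotypes exchanged. Consensus regions at the members were 1 at P9 when a peak was required in every library, and 4 at P14 and 4 in adult microglia with lists of equal length. In peritoneal macrophages they were 9 with a peak in every library, 13 at the higher −log10 p minimum, 6 for equally long lists, and 9 to 22 leaving out 1 library. Leaving out 1 library of a WT or KO pair makes the remaining list, which is longer, its consensus. That gave 3 to 9 lost and 0 to 2 gained PU.1 regions, 11 to 30 lost and 1 to 14 gained H3K27ac regions, and 5 to 16 lost and 3 to 17 gained H3K4me1 regions. PU.1 losses were 9 without WT replicate 2, and gains 2 without either KO library. H3K27ac gains were 9 and 14 without KO replicate 1 and 2, and H3K4me1 gains 17 and 7 without KO replicate 1 and 2 and 6 without WT replicate 1. When loss or gain was judged against the other genotype's consensus, 19 of 27 H3K27ac regions were lost (70.4%), against 78.4% genome-wide. The member share was then below the genome-wide share, while the main setting had it above, at 40.7% against 34.0%. By the same rule 2 of 10 H3K27ac regions were gained, against 19.7% genome-wide, and 6 of 26 H3K4me1 regions (23.1%), against 44.4%. Lists of equal length gave 6 of 16 H3K27ac regions lost (37.5%), against 35.4% genome-wide, and 2 of 9 gained (22.2%), against 13.5%. The −log10 p minimum of 10 gave 0 of 5 gained, against 8.03%. A window of 5 kb gave 0 of 8 H3K27ac regions gained, against 10.9% genome-wide. For H3K4me1 it gave 3 of 19 lost (15.8%), against 13.0%, and 1 of 19 gained (5.26%), against 23.8%. One of 50 kb gave 7 of 45 H3K4me1 regions gained (15.6%), against 23.8%. The share of adult member regions with the ISRE-like motif was 64.7% over whole regions, against 17.6% near the centre. The causes were not tested beyond these constructions. The promoter counts did not move by over 1.5 times under the alternatives run.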
